A study of Mus musculus with 4 samples.

Results

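The data are the accessible chromatin regions at the 3 Runx genes and at Cbfb in mouse microglia with and without IRF8. They comprise every deposited ATAC-seq peak that overlaps the body of Runx1, Runx2, Runx3 or Cbfb or the 10 kb on either side, on the GRCm38 genome with GENCODE M21 gene models. These are 408 of the 676057 distinct peaks of the 4 libraries on autosomes and X: 162 at Runx1, 152 at Runx2, 68 at Runx3 and 26 at Cbfb. ATAC-seq marks open chromatin by inserting sequencing adapters with the Tn5 transposase. Microglia, the resident macrophages of the brain, were isolated without enzymes and sorted by FACS from untreated C57BL/6 mice aged 3 months. The WT group has 2 libraries and the IRF8KO group has 2. IRF8, an interferon regulatory factor, is a DNA-binding protein that microglia need for their development and identity. The labels give neither the allele nor a Cre driver, and do not say whether the 2 libraries of a genotype come from separate mice, so every p-value measures only the spread between these libraries, which may be technical.

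RUNX proteins bind DNA through the Runt domain, whose core site reads TGTGGTT. Cbfb encodes CBFβ, the shared partner, which does not contact DNA itself but raises the affinity and stability of all 3 RUNX proteins. Runx1 is known for blood cell formation and for its role in developing microglia, Runx2 for bone formation and for plasmacytoid dendritic cells, and Runx3 for CD8 T cells, NK cells and dendritic cells. Each Runx gene has a distal promoter, P1, and a proximal promoter, P2, which give proteins with different first residues.

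The peak caller was run on each library separately. A peak with a −log10 q of at least 2 is called strict here. Strict peaks of the 4 libraries that overlapped by at least 1 bp were merged into regions, 110 at the 4 genes and 155546 in the genome. The level of a region is its highest summit pileup, the number of overlapping extended tags, divided by the library's tags and multiplied by 1000000, called the normalised pileup. Regions are named by their distance from the P1 start (for Cbfb, from its promoter) in the direction of transcription. Of the 110 regions, 43 had a deposited peak in every library and so a level in each, and 67 had none in at least 1 library.

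The 2 WT libraries held 46948938 and 48896408 tags, and the 2 IRF8KO libraries 78793572 and 66224648 (replicate 1 first, as in every pair of values). Across the genome, levels were lower in IRF8KO, with a median log2 difference of -0.31 over 58550 regions with a peak in all 4 libraries. IRF8KO replicate 1 had the lowest median level, 0.444 units of normalised pileup, against 0.767 and 0.614 in WT and 0.695 in the other IRF8KO library. Calls are therefore counted both on this scale and after subtracting each library's median (median-centred). At Irf8 itself, strict peaks were present in all 4 libraries, 9 and 6 in WT against 12 and 10 in IRF8KO, so the presence of peaks there does not check the genotype labels. The highest level within 1 kb of the Irf8 start was 2.07 and 1.49 in WT against 0.863 and 1.36 in IRF8KO. Promoters of 8 microglial marker genes had a strict peak in 8 and 8 of 8 in WT and in 7 and 7 of 8 in IRF8KO, where Sall1, a transcription factor of microglial identity, had none. Their summed level was 23.2 and 16.5 in WT and 9.04 and 15.0 units of normalised pileup in IRF8KO.

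The following windows are shown because they carry the differences at Runx2 described next: 3 regions found only in the IRF8KO libraries and the 2 shared regions whose levels rose. Each is 201 bp of the GRCm38 plus strand around the highest summit, all in Runx2 introns. Capitals mark matches, on either strand, to AP-1 (TGAGTCA or TGACTCA), C/EBP (TTGCNNAA) or PU.1 (GAGGAAGT) core letters.
Runx2 +160.1 kb, chr17:44654592-44654792: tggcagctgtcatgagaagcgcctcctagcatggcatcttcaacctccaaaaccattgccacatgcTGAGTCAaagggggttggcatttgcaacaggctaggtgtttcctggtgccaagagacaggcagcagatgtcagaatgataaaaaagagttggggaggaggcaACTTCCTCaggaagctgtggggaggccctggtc
Runx2 +151.4 kb, chr17:44663282-44663482: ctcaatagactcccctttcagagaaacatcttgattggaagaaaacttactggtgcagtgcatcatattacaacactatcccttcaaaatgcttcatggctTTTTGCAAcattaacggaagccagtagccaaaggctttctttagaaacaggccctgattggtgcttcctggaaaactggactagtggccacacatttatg
Runx2 +150.7 kb, chr17:44663927-44664127: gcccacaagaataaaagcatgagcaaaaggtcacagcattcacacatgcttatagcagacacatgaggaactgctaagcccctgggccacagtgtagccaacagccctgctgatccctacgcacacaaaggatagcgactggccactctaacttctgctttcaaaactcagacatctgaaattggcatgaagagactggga
Runx2 +141.9 kb, chr17:44672870-44673070: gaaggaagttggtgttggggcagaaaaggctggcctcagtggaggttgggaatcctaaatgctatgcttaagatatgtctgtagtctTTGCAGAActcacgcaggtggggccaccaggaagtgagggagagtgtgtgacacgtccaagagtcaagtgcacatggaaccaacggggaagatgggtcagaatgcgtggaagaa
Runx2 +104.7 kb, chr17:44709936-44710136: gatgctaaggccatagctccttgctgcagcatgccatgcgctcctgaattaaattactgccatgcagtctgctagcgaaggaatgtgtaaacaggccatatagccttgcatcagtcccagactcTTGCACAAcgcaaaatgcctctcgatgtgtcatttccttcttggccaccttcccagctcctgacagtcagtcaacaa

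Runx2 (ENSMUSG00000039153.16) lies on the minus strand at chr17:44495987-44814797. Its strict peaks numbered 17 and 16 in WT against 32 and 37 in IRF8KO. Both IRF8KO libraries thus lay above both WT libraries, at 34.5 ± 3.54 against 16.5 ± 0.707 peaks (SD, n = 2), a ratio of 2.09. In bulk samples, more cells with an open site and more openness per cell cannot be told apart. The two-sided exact permutation test gave p = 0.33, the smallest that 2 against 2 libraries allow. Among 18470 protein-coding genes with a strict peak, 9.37% had both IRF8KO counts above both WT counts, and the median difference was -0.5 peaks. A gain of at least 18 peaks, as at Runx2, was found at 5 genes, the others being Sema5a, Trps1, Sox5 and Csmd1 (named after their values were seen). This count was not scaled by length, and short genes have less room for such a gain. The windows of the 5 genes spanned 256 kb (Trps1) to 1663 kb (Csmd1), with 339 kb at Runx2. In strict peaks per 100 kb, Runx2 had 4.87 in WT, the lowest density of the 4 genes, and 10.2 in IRF8KO.

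**Figure D1:**
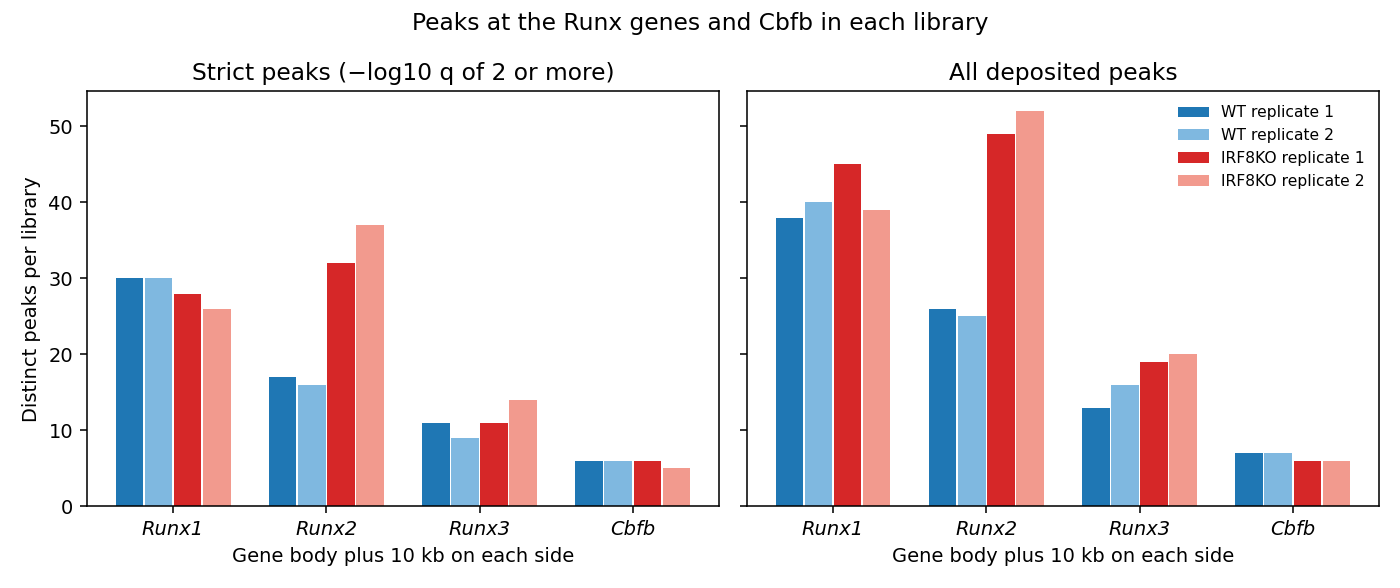
Number of distinct peaks (vertical axis) in each library at Runx1, Runx2, Runx3 and Cbfb (horizontal axis), strict peaks on the left and all deposited peaks on the right; each bar is 1 library. At Runx2 the strict bars of the IRF8KO libraries reach 32 and 37 against 17 and 16 in WT, and at Cbfb they are 6 and 5 against 6 and 6.

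Of the 42 merged regions at Runx2, 12 (28.6%) were IRF8KO-specific, that is, strict in both IRF8KO libraries and without any deposited peak in WT. In the genome this holds for 3.86% of regions. None of the 42 was WT-specific (the converse, 5.58% of regions in the genome). By the same rule, none was shared by 1 WT and 1 IRF8KO library alone in any of the 4 mixed pairs of libraries. Such regions are rare in the genome too, at 298, 689, 1018 and 263 of 155546, so their absence among 42 regions is no contrast. At least 12 IRF8KO-specific regions were found at 3 protein-coding gene models: Runx2, Itpr1 with 13, and the read-through model Gm20388 with 27 over a window of 4454.88 kb (named after their values were seen). The IRF8KO libraries held more tags, and over the genome 83996 and 95921 strict peaks against 97473 and 98863 in WT. Most of the specific regions were weak: over the 15 IRF8KO-specific regions of the 4 genes the lower of the pair of IRF8KO levels ranged from 0.165 to 0.698, and in 3 of 15 it exceeded 0.469, a level that nearly all non-strict peaks of WT replicate 1 stay below. With strict peaks also required to reach 0.192 units of normalised pileup in every library, 7 IRF8KO-specific regions were left at Runx2, and with −log10 q of at least 5 there were 7.

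Of the 12 IRF8KO-specific regions, 11 were intronic and 11 lay beyond the P2 start, as did 36 and 34 of all 42 Runx2 regions. Of the intronic ones, 10 lay 84.4 to 161.5 kb from P1, and P2 is 78.1 kb from P1. The +160.1 kb region (chr17:44654447-44654912), whose window holds 1 AP-1 and 1 PU.1 match, had levels of 0.698 and 1.36 units of normalised pileup in IRF8KO replicates 1 and 2. The +141.9 kb region (chr17:44672676-44673149), with 1 C/EBP match, had 0.647 and 1.45. The +151.4 kb region (chr17:44663248-44663514), also with 1 C/EBP match, had 0.508 and 0.876. These 3 were the strongest of the 12, and the other 9 reached 0.165 to 0.343 in replicate 1 and 0.196 to 0.529 in replicate 2. All 12 were higher in IRF8KO replicate 2 than in replicate 1, the direction in which the library medians differ.

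The remaining region lay on the P1 start itself. The Runx2 P1 region at +0.2 kb (chr17:44814442-44814807) had no deposited peak in WT and 0.178 and 0.438 units of normalised pileup in IRF8KO replicates 1 and 2. Within 1 kb of the P1 starts, each IRF8KO library had 2 deposited peaks and each WT library had 0. At P2, the +78.6 kb region (chr17:44735724-44736736) was open in every library, at 0.639 and 0.654 in WT against 1.05 and 1.54 in IRF8KO. The groups did not overlap, but the log2 difference of 0.98 ± 0.49 (SE) did not pass (adjusted p = 0.23, limma with Benjamini-Hochberg adjustment over 58550 regions); after median centring it was 1.28 with adjusted p = 3.82e-05. A second P2 region at +80.2 kb had 0.298 and 0.409 in WT and 0.495 and 0.680 in IRF8KO (adjusted p = 0.484, limma; after centring 0.0116). Another at +79.2 kb had a peak only in IRF8KO replicate 2, at 0.287. The +78.6 kb and +79.2 kb regions also lie within 1 kb of a start of another gene, Runx2os1. Their openness therefore cannot be assigned to Runx2 alone.

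**Figure D2:**
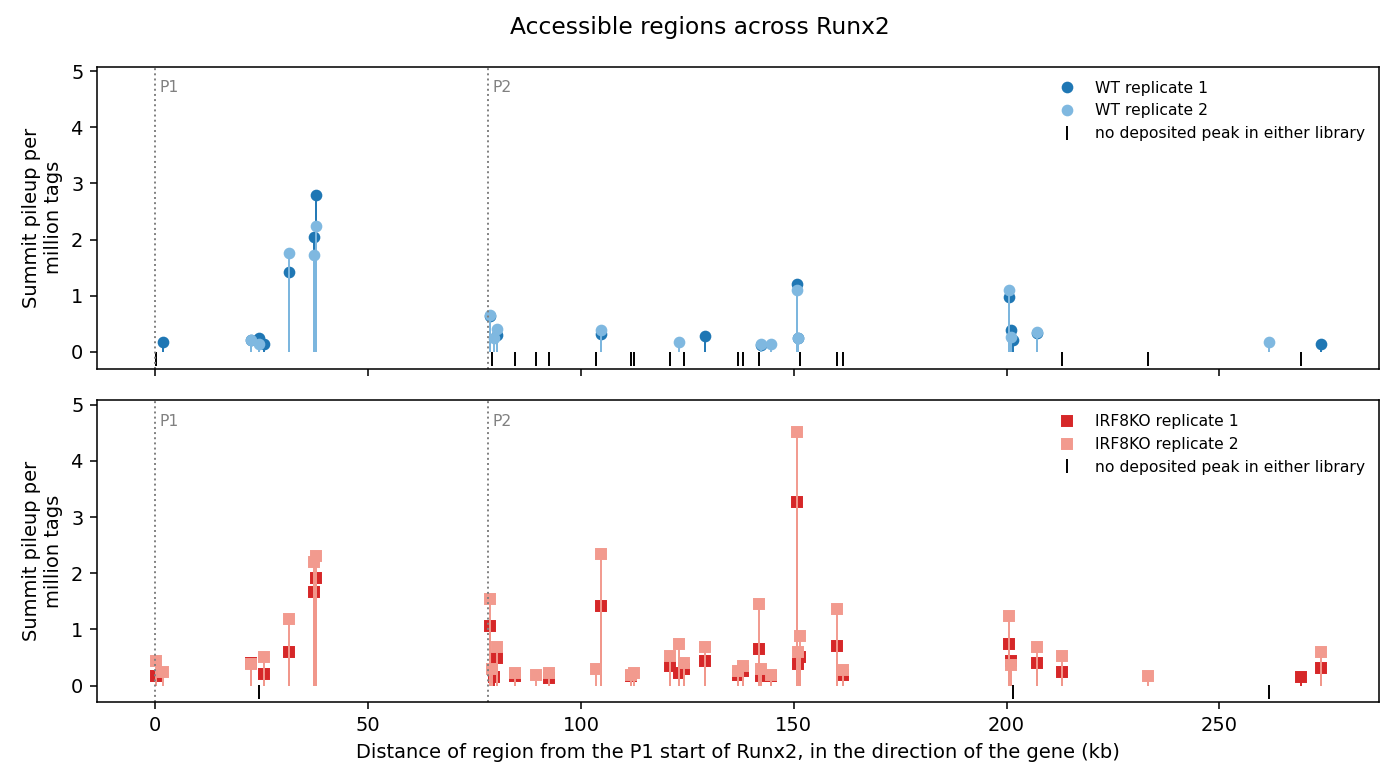
Normalised summit pileup, per 1000000 tags (vertical axis), of each merged region at Runx2 by its distance from the P1 start in kb (horizontal axis), with the WT libraries above and the IRF8KO libraries below. Dots and squares are single libraries, short ticks below the axis mark regions with no deposited peak in either library of that genotype, and dotted lines mark the 2 promoters. Of the 12 IRF8KO-specific regions, 11 lie beyond P2, as do 34 of all 42 regions.

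Of the 13 Runx2 regions with a level in all 4 libraries, 2 passed limma as higher in IRF8KO and 0 as lower. Only regions that passed are said here to have risen or fallen. By sign alone, 10 of the 13 log2 differences were above 0 and 3 below. Genome-wide, 2.81% of shared regions rose and 6.83% fell. The +150.7 kb region (chr17:44663866-44664403) had the highest mean over the 4 libraries of the gene, though not the highest in WT, at 1.21 and 1.10 units of normalised pileup in WT and 3.27 and 4.51 in IRF8KO. Both IRF8KO libraries exceeded both WT libraries, with a log2 difference of 1.73 ± 0.43 (SE) and an adjusted p of 0.00145 (limma). None of the motif letters searched was present in its window. The +104.7 kb region (chr17:44709905-44710259), within 1 kb of the start of the antisense gene Runx2os2, had 0.319 and 0.389 in WT and 1.41 and 2.34 in IRF8KO. Its log2 difference was 2.37 ± 0.50 (SE; adjusted p = 0.00011, limma), a ratio of 5.15. The assay has no strand, so these openings cannot be assigned to Runx2 or to its antisense transcripts. With the authors' fold enrichment over local background in place of pileup, the +150.7 kb difference was 0.59 (adjusted p = 0.075, limma) and the +104.7 kb difference 1.85 (adjusted p = 0.00495). Without WT replicate 1 or without WT replicate 2, neither passed (adjusted p of 0.457 and 0.46 at +150.7 kb, 0.298 and 0.138 at +104.7 kb), while the log2 differences stayed between 1.66 and 2.51.

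In all 6 shared regions from P2 to +161.5 kb, both IRF8KO libraries lay above both WT libraries, with log2 differences from 0.73 to 2.37. This stretch was chosen after its values were seen. The +142.3 kb region among them was strict only in IRF8KO, with a −log10 q of 0.53 and 0.98 in WT. In the genome, 11.9% of shared regions had both IRF8KO libraries above both WT libraries. Given how the stretch was chosen, that share is background and the count of 6 is no test. Upstream of P2, the order varied. The +22.5 kb and +31.5 kb regions are named after their values were seen. The first had 0.213 and 0.205 in WT against 0.406 and 0.378 in IRF8KO (log2 difference 0.91; adjusted p = 0.305, limma; after centring 0.00789). The +31.5 kb region had 1.43 and 1.76 in WT against 0.596 and 1.18 in IRF8KO, below both WT libraries (log2 difference -0.92; adjusted p = 0.245, limma; after centring 0.048). The +37.7 kb region, whose levels were 2.79 and 2.25 in WT and 1.92 and 2.31 in IRF8KO, overlapped between the groups (log2 difference -0.25 ± 0.42, SE; adjusted p = 0.796, limma). Its neighbour at +37.2 kb had 2.04 and 1.72 in WT and 1.66 and 2.20 in IRF8KO, and also overlapped. Both lie within 1 kb of a start of Supt3, which encodes a transcription coactivator subunit and overlaps Runx2. After median centring, 8 of the 13 regions were called higher and 1 lower, against 13.3% and 12.5% of shared regions in the genome.

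At Runx1, the regions that passed limma without median centring were lower in IRF8KO. After centring, regions were called in both directions. The windows below are shown because they hold the stronger of the 2 WT-specific regions, the largest fall among shared regions and the strongest region that fell. They are 201 bp of the GRCm38 plus strand around the highest summit, the first in the downstream flank and the others intronic. Capitals mark matches to an interferon-stimulated response element core (ISRE, here GAAA and GAAA separated by any 2 bases) in the first and to AP-1 in the +150.4 kb window; the +193.6 kb window has none.
Runx1 +228.3 kb, chr16:92597792-92597992: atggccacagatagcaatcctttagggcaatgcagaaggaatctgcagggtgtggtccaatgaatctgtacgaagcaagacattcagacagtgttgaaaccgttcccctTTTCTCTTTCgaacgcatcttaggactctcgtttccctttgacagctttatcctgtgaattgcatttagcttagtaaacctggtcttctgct
Runx1 +193.6 kb, chr16:92632499-92632699: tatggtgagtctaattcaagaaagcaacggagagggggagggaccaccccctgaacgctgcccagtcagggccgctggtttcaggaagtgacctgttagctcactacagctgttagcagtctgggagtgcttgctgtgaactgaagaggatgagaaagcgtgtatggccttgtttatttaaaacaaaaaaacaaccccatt
Runx1 +150.4 kb, chr16:92675748-92675948: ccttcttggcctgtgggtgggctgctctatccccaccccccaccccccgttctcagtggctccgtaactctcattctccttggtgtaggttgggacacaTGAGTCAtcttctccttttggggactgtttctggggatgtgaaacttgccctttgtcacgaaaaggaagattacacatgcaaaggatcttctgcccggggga

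Runx1 (ENSMUSG00000022952.17) lies on the minus strand at chr16:92601466-92826149. Its strict peaks numbered 30 and 30 in WT against 28 and 26 in IRF8KO. These are 30 ± 0 against 27 ± 1.41 (SD, n = 2; two-sided exact permutation p = 0.33, the smallest possible), and 21.4% of genes had both IRF8KO counts below both WT counts. With all deposited peaks the direction turned, at 38 and 40 in WT and 45 and 39 in IRF8KO. Of 44 merged regions, 2 (4.55%) were WT-specific and 2 (4.55%) were IRF8KO-specific, near the 5.58% and 3.86% of the genome.

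Among the 17 Runx1 regions with a level in all 4 libraries, 3 passed limma as lower in IRF8KO and 0 as higher. In the genome, 6.83% and 2.81% of shared regions did. By sign alone, 9 of the 17 log2 differences were above 0 and 8 below. The +193.6 kb region (chr16:92632454-92632687) had 1.0 and 0.859 units of normalised pileup in WT and 0.165 and 0.196 in IRF8KO. The groups were far apart, with a log2 difference of -2.37 ± 0.53 (SE; adjusted p = 0.00033, limma), a ratio of 5.15 for WT over IRF8KO. The +150.4 kb region (chr16:92675406-92676056), whose window holds an AP-1 match, had 2.85 and 2.35 in WT and 0.673 and 1.06 in IRF8KO. This was 1 of the strongest WT openings of the gene, and its log2 difference was -1.62 ± 0.45 (SE; adjusted p = 0.0062, limma). The +3.8 kb region (chr16:92822161-92822439), in an intron close to P1, had 1.87 and 1.33 in WT and 0.355 and 0.680 in IRF8KO, a log2 difference of -1.68 ± 0.49 (SE; adjusted p = 0.0101, limma). By fold enrichment, the +150.4 kb difference was -0.73 (adjusted p = 0.12, limma) and the other 2 passed. Without WT replicate 1 or without WT replicate 2, none of the 3 passed, with adjusted p from 0.14 to 0.947 and log2 differences from -2.48 to -1.44.

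The WT-specific regions at Runx1 were +228.3 kb (chr16:92597770-92598012), downstream of the gene, at 0.682 and 0.695, and +65.1 kb, at 0.213 and 0.266. The window of the first, shown above, was the single window of the 110 with an ISRE match, the kind of letters that IRF proteins bind; 3.13% of all regions have one. The IRF8KO-specific regions were +213.4 kb, at 0.216 and 0.287 near the start of the antisense gene Gm26626, and +123.8 kb, at 0.368 and 0.453.

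Both Runx1 promoters were strongly open in every library. The P1 region (chr16:92825874-92826528) had 3.09 and 2.52 units of normalised pileup in WT and 2.97 and 4.24 in IRF8KO, so the groups overlapped (log2 difference 0.35 ± 0.41, SE; adjusted p = 0.696, limma). The P2 region (chr16:92697181-92697809) had 2.62 and 1.76 in WT and 2.20 and 3.71 in IRF8KO, which also overlapped (0.41 ± 0.42, SE; adjusted p = 0.645). Relative to the library medians both were higher in IRF8KO, with adjusted p of 0.00219 and 0.00172. Upstream of P2, the +110.5 kb region had 1.26 and 1.02 in WT and 1.80 and 2.45 in IRF8KO, without overlap (log2 difference 0.89 ± 0.45, SE; adjusted p = 0.235; after centring 5.15e-06). The +25.2 kb region went the other way, with 2.88 and 1.64 in WT and 1.07 and 1.36 in IRF8KO (-0.85 ± 0.44, SE; adjusted p = 0.262; after centring 0.0494). The largest positive difference lay just beyond P2, at +129.4 kb over an untranslated exon, with 0.469 and 0.450 in WT and 1.12 and 1.30 in IRF8KO (1.39 ± 0.50, SE; adjusted p = 0.0572; after centring 6.55e-07; named after its values were seen). After centring, 7 of the 17 regions were called higher and 4 lower, against 13.3% and 12.5% in the genome. The gene thus held differences in both directions, and its median log2 difference was 0.02 against -0.31 in the genome.

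**Figure D3:**
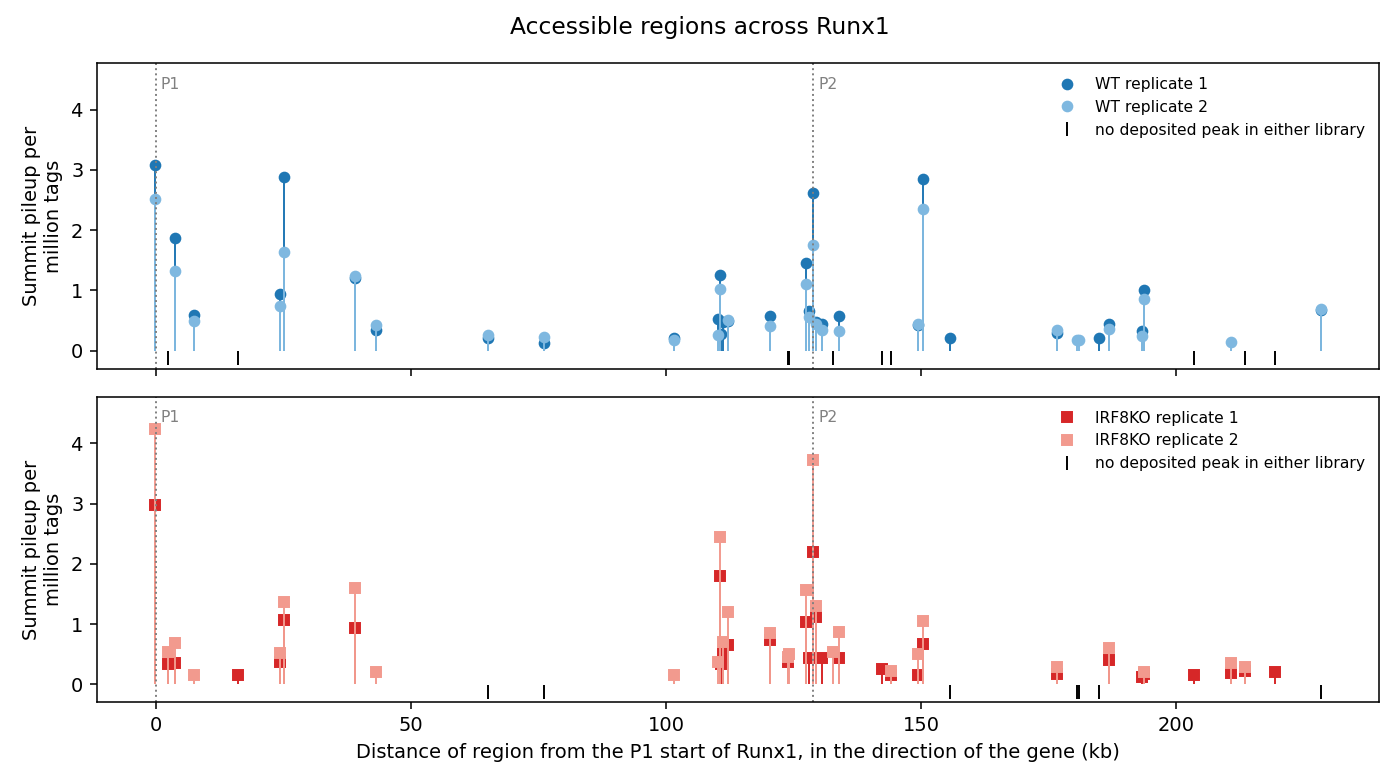
Normalised summit pileup, per 1000000 tags (vertical axis), of each merged region at Runx1 by its distance from the P1 start in kb (horizontal axis), with WT libraries above and IRF8KO libraries below; symbols, ticks and dotted lines are as in the plot of the Runx2 regions. The +3.8 kb, +150.4 kb and +193.6 kb regions are lower in both IRF8KO libraries, and both promoters are open in all 4 libraries.

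Runx3 (ENSMUSG00000070691.10) lies on the plus strand at chr4:135120652-135177990. Its strict peaks numbered 11 and 9 in WT against 11 and 14 in IRF8KO. The counts touched at 11, and their means were 10 ± 1.41 and 12.5 ± 2.12 (SD, n = 2; two-sided exact permutation p = 0.667). Of 18 merged regions, 1 (5.56%) was IRF8KO-specific, near the 3.86% of the genome. It was the intronic +21.3 kb region, at 0.241 and 0.574 units of normalised pileup. No merged region overlapped the P1 start, and within 1 kb of it the only deposited peak was 1 non-strict peak in IRF8KO replicate 1. The P2 region at +31.7 kb (chr4:135152064-135152621) was weak, at 0.447 and 0.266 in WT and 0.457 and 0.513 in IRF8KO (log2 difference 0.49 ± 0.53, SE; adjusted p = 0.671, limma).

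None of the 8 Runx3 regions shared by all libraries passed limma in either direction. All 8 log2 differences were above 0, with a median of 0.28, whereas 16716 of the 58550 shared regions of the genome were above 0. After median centring, 3 regions were called higher, against 13.3% in the genome. The strongest region, +61.3 kb in the downstream flank, had 2.77 and 1.96 in WT and 2.68 and 3.26 in IRF8KO. Its levels overlapped between the groups (log2 difference 0.34; adjusted p = 0.709, limma), but relative to the library medians the region was called higher (0.65; adjusted p = 0.00467). The intronic +8.4 kb region had 2.19 and 1.62 in WT and 1.78 and 2.01 in IRF8KO, a log2 difference of 0.00 ± 0.43 (SE; adjusted p = 0.997). The downstream +58.7 kb region had 0.341 and 0.225 in WT and 0.635 and 0.785 in IRF8KO, without overlap (log2 difference 1.35 ± 0.53, SE; adjusted p = 0.0901; after centring 3.17e-05).

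Cbfb (ENSMUSG00000031885.14) lies on the plus strand at chr8:105170674-105217989. It had 6 and 6 strict peaks in WT and 6 and 5 in IRF8KO (two-sided exact permutation p = 1, n = 2 per group). Of its 6 merged regions, 0 were specific to either genotype and 0 of the 5 shared regions passed limma. Its promoter (chr8:105170197-105171128) was the most open region of the 4 genes in WT, though not in IRF8KO, at 4.81 and 4.19 units of normalised pileup in WT and 2.83 and 4.05 in IRF8KO. Both IRF8KO libraries were below both WT libraries, with a log2 difference of -0.41 ± 0.40 (SE; adjusted p = 0.627), close to the shift of the whole genome, where 37.1% of shared regions had this order. The +0.9 kb region, over a coding exon, had 2.13 and 1.37 in WT and 0.698 and 0.800 in IRF8KO (log2 difference -1.19 ± 0.47, SE; adjusted p = 0.0896; after centring 0.00252). The +1.5 kb region had 1.30 and 1.23 against 0.749 and 1.21, and the +54.5 kb region, at the start of D230025D16Rik, had 2.19 and 2.15 against 1.47 and 2.30.

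**Figure D4:**
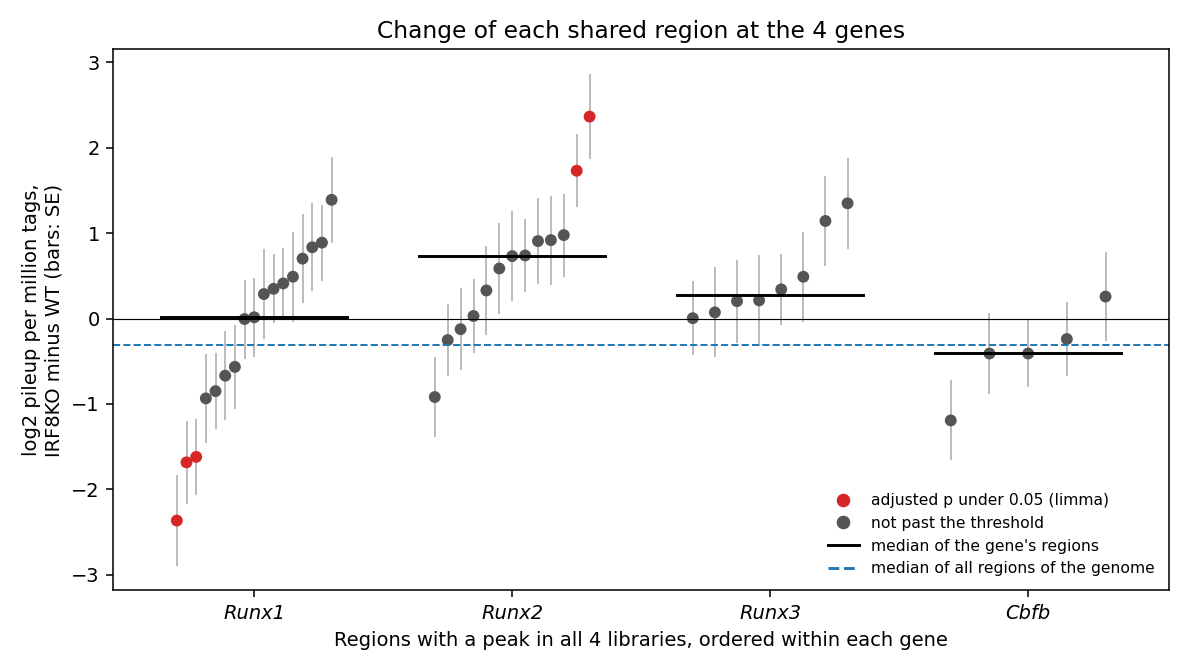
log2 difference in normalised summit pileup, IRF8KO minus WT (vertical axis), of the 43 regions with a peak in all 4 libraries, ordered within each gene (horizontal axis); grey bars are the SE, short black lines the gene's median and the dashed line the genome median of -0.31. Red points passed limma: 2 regions at Runx2, above 0, and 3 at Runx1, below 0.

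Averaged over its shared regions, the log2 level of Runx2 was -0.84 and -0.83 in WT and -0.46 and 0.03 in IRF8KO, a difference of 0.62. Of 4906 protein-coding genes with at least 5 shared regions, 57 reached this difference or more, Runx2 included, and the median gene was at -0.32. Runx3 had -0.77 and -1.16 in WT and -0.63 and -0.35 in IRF8KO, a difference of 0.48, which 98 genes reached. For both genes the 2 IRF8KO libraries lay above the 2 WT libraries (two-sided exact permutation p = 0.33, n = 2 per group, the smallest possible). Leaving out 1 library, the difference ranged from 0.37 to 0.86 at Runx2 and from 0.21 to 0.67 at Runx3. Runx1 (0.01 and -0.28 against -0.66 and -0.01) and Cbfb (0.66 and 0.44 against -0.25 and 0.56) overlapped between genotypes, with differences of -0.20 and -0.40 (exact permutation p = 0.667 for each, n = 2 per group). The difference at Runx1 turned to 0.11 after median centring and to 0.00029 without WT replicate 1, and that at Cbfb to 0.0104 without IRF8KO replicate 1. In WT the order of this mean level per region was Cbfb, Runx1, Runx2, Runx3, and the values of Runx2 and Runx3 overlapped.

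By the Euclidean distance between these mean levels, centred over the 4 libraries, Bcas3 (0.0705) and Gfod1 (0.107) were the most like Runx2 among 4905 genes. Ralgds (0.0492) and 2510009E07Rik (0.0597) were the most like Runx3, Cenpn (0.00895) and Pcnx2 (0.0167) the most like Runx1, and Foxp1 (0.0212) and Kif11 (0.0245) the most like Cbfb. With 4 libraries, such likeness is a description.

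The same motif letters were searched on both strands of the 201 bp windows of all regions. RUNX letters (TGTGGTT) were in 11 of the 110 windows at the 4 genes and in 5.57% of all regions. They were in 3 of the 12 IRF8KO-specific windows at Runx2 (+136.8 kb, +84.4 kb and the P1 region), against 11.0% of all IRF8KO-specific regions. AP-1 letters were in 5 of these 12 and C/EBP letters in 5, against 15.2% and 20.6% of all IRF8KO-specific regions and 5.91% and 9.54% of all regions. PU.1 letters were in 1 of the 12, near the 7.83% of all IRF8KO-specific regions and 7.73% of all regions. The ETS-IRF composite letters (GGAA and GAAA separated by any 2 bases, which share GGAA with PU.1) and ISRE letters were in 0 of the 12, against 1.83% and 2.96% of all IRF8KO-specific regions. A match is a description of the letters and not of binding. In the 300 bp RefSeq promoters of GRCm38.p6, RUNX letters occurred 2 times at Runx1 P1, 3 times at Runx2 P1, 2 times at Runx3 P1 and 0 times at Runx1 P2, Runx3 P2 and Cbfb. Of 32851 promoters, 5.27% held at least 1 match and 0.204% at least 2. All 3 P1 promoters thus held repeated RUNX letters, while their openness ranged from no strict peak (Runx3) to that of the strongest Runx1 region.

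Genes of the wider pathway were counted in the same way. The 25 RUNX cofactors and modifiers held 377 regions, of which 35 (9.28%) were WT-specific and 8 (2.12%) IRF8KO-specific, against 5.58% and 3.86% of the genome. Of their 158 shared regions, 3 (1.90%) rose and 19 (12.0%) fell, against 2.81% and 6.83%, with a median log2 difference of -0.39 against -0.31 in the genome. The genes named from each list are those with the most genotype-specific or called regions. Wwtr1, which encodes the coactivator TAZ, had 6 WT-specific regions and 3 that fell. Hipk2, a kinase that phosphorylates RUNX1, had 4 WT-specific regions, 1 IRF8KO-specific region and 3 that fell. Runx1t1, which encodes the corepressor ETO, had 3, 1 and 2, and Tcf12, an E protein, had 5, 0 and 1. Smad3, a signal transducer of the TGF-beta pathway (named after its values were seen), had 1 WT-specific and 1 IRF8KO-specific region, 2 regions that rose and 1 that fell.

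The 22 genes known as RUNX targets in blood or immune cells held 195 regions, of which 8 (4.10%) were WT-specific and 9 (4.62%) IRF8KO-specific, near the 5.58% and 3.86% of the genome. Of 107 shared regions, 6 (5.61%) rose and 7 (6.54%) fell, against 2.81% and 6.83%, with a median log2 difference of -0.25. Itgae, the integrin chain CD103, had 2 WT-specific and 2 IRF8KO-specific regions and 2 that fell. Cd36, a scavenger receptor, had 1 WT-specific and 2 IRF8KO-specific regions, 2 that rose and 1 that fell. Csf1r, the receptor for CSF1 and IL-34, had 3 WT-specific regions, 1 IRF8KO-specific region and 1 that fell.

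Promoters of marker genes of other cells were read in the same libraries. For border macrophages, 2 of 4 promoters had a strict peak in each library, Lyve1 and Cd163 having none, and the summed level of the 4 was 0.958 and 0.757 in WT and 1.87 and 3.17 in IRF8KO. For neutrophils the counts were 1 and 0 against 1 and 1 of 4, with summed levels of 0.405 and 0.286 against 0.279 and 0.257. For T, B or NK cells they were 0 of 4 in every library, with sums of 0.170 and 0.164 in WT and no deposited peak in either IRF8KO library. Endothelial promoters summed to 6.73 and 5.54 in WT and 1.18 and 1.96 in IRF8KO, with strict peaks at 3 and 2 against 2 and 2 of 3. Astrocyte promoters had strict peaks at 3 and 2 against 1 and 1 of 4, with summed levels of 1.09 and 0.532 against 0.977 and 1.77, which overlapped. Neuronal ones had strict peaks at 1 and 3 against 2 and 1 of 3, with sums of 0.682 and 0.859 against 0.533 and 0.468. Oligodendrocyte ones had strict peaks at 2 and 2 against 1 and 2 of 3, with sums of 2.04 and 1.47 against 0.495 and 1.15. Among these lists, summed levels of border macrophage promoters were thus higher in both IRF8KO libraries than in both WT libraries. Those of endothelial, oligodendrocyte, neuronal, neutrophil and T, B or NK cell promoters were lower in both. Among single shared regions of the genome, 11.9% had the first order and 37.1% the second. The T, B or NK cell sums came from non-strict peaks alone. The neutrophil sums nearly met, at 0.286 against 0.279, and their strict counts were not lower in IRF8KO. The part of other cells in the Runx differences was not tested.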

How the data were processed

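ATAC-seq peaks of 4 libraries were analysed. Per the labels' protocols, nuclei were tagmented with a Nextera kit and amplified by 12 PCR cycles. Per the submitters' processing notes, Bowtie2, MACS2 2.1.1.20160309, bcl2fastq and deepTools were used with build mm10. Peaks were called per library without a control, per the file headers, at p 0.01 with a shift of -37 bp and an extension of 73 bp, keeping all duplicate tags, so PCR copies add to the pileup. The deposited columns are the pileup signal at each summit, fold enrichment (a ratio to local background), and −log10 p and −log10 q; the headers say that q was not calculated, yet the deposited q column holds values, which were used. Tag length was 50 bp in WT and 49 bp in IRF8KO, per the file headers.

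Repeated rows of a peak with several summits were joined, and autosomes and X were used. Pileup was scaled to 1000000 tags by the tag number in each header. Log2 levels, without a pseudocount, were tested with limma 3.58.1 (eBayes with a trend, R 4.3.3) over all 58550 regions with a peak in all 4 libraries, at a Benjamini-Hochberg adjusted p under 0.05. Simulated data of that size had 100 regions changed by 2 on the log2 scale and 100 changed by 1. Of these, 57% and 2% were recovered, so the smaller changes were mostly missed there. In the data, 1643 regions were called higher and 4001 lower. The adjusted threshold thus differed from that of the simulation, whose shares do not give the recovery in the data. Gene counts and means were tested with exact permutation over libraries. Of the merged regions, 0 ran past a chromosome end of GRCm38, the genome of the reference annotation. This check alone does not establish the build, which is taken from the submitters' notes. Sequences came from GRCm38.p6 by coordinates.

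Regions named are those at a transcription start, those specific to a genotype, the 3 strongest others per gene and those called by limma. The members and lists were chosen with earlier results of these data known. Just inside the windows lay, for example, a Runx3 region with a level of up to 3.26 units of normalised pileup, and just outside it one of up to 3.37, 5.0 kb beyond the edge; at Runx2 the nearest outside regions reached 0.498 and 0.277. The alternatives tried were other peak thresholds, windows, scalings, measures and filters, a replicate block and leaving out each library. One list of marker genes is not reported here.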

Additional observations from a re-analysis of the deposited data

How the results depend on the processing

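The strict peak difference stayed positive at Runx2 in every alternative run, from 13.5 to 25 peaks (15.5 to 20.5 leaving out 1 library), and at Runx3 from 1 to 5 (1 to 4 leaving out 1 library). At Runx1 it was -4 to -2 leaving out 1 library but 3 with all deposited peaks; at Cbfb it was -1 to 0 leaving out 1 library and -1.5 at equal pileup. Mean log2 accessibility at Runx2 ranged from 0.37 to 0.92 (0.37 to 0.86 leaving out 1 library) and at Runx3 from 0.21 to 0.78 (0.21 to 0.67). At Runx1 it was 0.11 after median centring, and -0.52 to 0.00029 leaving out 1 library, the upper end without WT replicate 1. At Cbfb it was -0.81 to 0.0104 leaving out 1 library, the upper end without IRF8KO replicate 1. Their causes were not tested.

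Regions of the 4 genes called higher and lower numbered 2 and 3. They were 18 and 6 after median centring, 15 and 8 with missing peaks set to the lowest deposited pileup (which adds regions), 1 and 2 by fold enrichment, and 4 and 3 without the variance trend. Leaving out 1 library gave 0 to 7 higher (7 without IRF8KO replicate 1) and 0 to 9 lower (9 without IRF8KO replicate 2), with 0 of both without WT replicate 1 and without WT replicate 2, where WT has 1 library whose spread is assumed to be that of IRF8KO. With the replicate number as a block, 0 were higher and 1 lower; same-numbered libraries did not deviate together (r = 0.0044 over regions), so the numbers are not treated as pairs. All 5 called regions stayed called in the same direction after centring, with the fill, without the trend and with a pseudocount of 0.5. The pseudocount made all 5 log2 differences smaller. The largest went from -2.37 to -1.07 at Runx1 +193.6 kb and from 2.37 to 1.45 at Runx2 +104.7 kb. In the genome, 1643 higher and 4001 lower regions became 7812 and 7292 after centring, 5892 and 15376 with the fill, 329 and 877 with the block, and 1421 and 2069 by fold enrichment.

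The 2 WT-specific regions became 1 with −log10 q at 5 or more, 4 when every deposited peak counted, 1 in gene bodies alone and 5 to 8 leaving out 1 library (7 and 8 without WT replicate 1 or 2, 5 and 6 without IRF8KO replicate 1 or 2), while those of the genome went from 8673 to 25432, 21086, 10012 and 14376. The 15 IRF8KO-specific regions became 9 with −log10 q at 5 or more, 21 when every deposited peak counted, 10 at equal pileup and 17 to 28 leaving out 1 library (28 without IRF8KO replicate 1), where 1 library fewer must agree; at Runx2 these were 7, 13, 7 and 13 to 18. Those of the genome went from 6005 to 8654 and 7834 without WT replicate 1 or 2, and to 21321 and 20169 without IRF8KO replicate 1 or 2. With −log10 q at 5 or more the genome held 4429 WT-specific and 3016 IRF8KO-specific regions, with every deposited peak 14368 and 14161, and at equal pileup 8034 and 4098. WT libraries had fewer tags than IRF8KO libraries, and the part of depth in these counts was not tested beyond the equal pileup.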
